A study of Homo sapiens with 8 samples.

Results

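The replication-dependent histone genes are clustered, mostly intronless genes that supply the proteins packed onto newly copied DNA. A gene was taken as a member when its current symbol was H1-1 to H1-6, or H2AC, H2BC, H3C or H4C with a number, or when an older symbol of it began with HIST1H, HIST2H or HIST3H; pseudogenes were left out. This gave 70 protein-coding genes in the RefSeq gene table: 6 of class H1, 17 of H2A, 18 of H2B, 14 of H3 and 15 of H4. The HIST1 cluster on chromosome 6 holds 55 of them, HIST2 and HIST3 on chromosome 1 hold 11 and 3, and H4C16 lies alone on chromosome 12. On the arrays, 66 of the 70 had a probe, among 22439 genes that could be named.

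H3 and H4 form the core of the nucleosome, H2A and H2B join it as dimers, and H1 is the linker histone on the DNA between nucleosomes. Their mRNAs are made in S phase under the coactivator NPAT and end in a stem-loop, bound by SLBP, in place of a poly(A) tail; they are degraded when DNA synthesis stops. Several cluster genes can also give polyadenylated transcripts, and labelling of RNA from an oligo-dT primer, as in linear amplification kits, favours such transcripts.

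RNA from 4 human lung cancer lines was measured on 8 Agilent 2-colour arrays of 1 slide. EBC-1 and SK-MES-1, squamous cell carcinoma lines, were each transfected with the microRNA miR-150-3p and hybridised on 1 array. SBC-3, a small cell line, received 1 of 3 siRNAs against DONSON, a gene of replication fork stability, and the siRNAs siDONSON-1, siDONSON-2 and siDONSON-3 had 1 array each. A549, an adenocarcinoma line, gave 3 arrays of genome-edited cells, A549-GE1, A549-GE2 and A549-GE3, with LOXL2, a lysyl oxidase gene, as the edited gene. Treated RNA was in Cy5 (red) and the control of the same line in Cy3 (green) on every array. The control is called mock in one label and untransfected in another, and for A549 it is the unedited line. The paper describes the miR-150-3p arrays and gives 72 h for transfections outside the proliferation assay; the time for the other arrays, and whether an edited line is 1 clone, are not given in the sources used here. Whether arrays of 1 line share a control RNA is not given either, so the spread between arrays of 1 line may be technical. The p-values rest on a spread pooled over the 3 groups. It also holds the gap between EBC-1 and SK-MES-1 and the differences between the 3 siRNAs.

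Values below are log2(Cy5/Cy3), so that -1 means that the treated RNA had 1/2 of the control's signal. DONSON had log2 ratios of -2.15, -1.79 and -2.11 with siDONSON-1, siDONSON-2 and siDONSON-3 (mean -2.02, SE 0.16, limma adjusted p = 0.00168). LOXL2 had -2.49, -2.67 and -2.59 in A549-GE1, A549-GE2 and A549-GE3 (mean -2.58, SE 0.23, adjusted p = 0.00126); where the edit lies relative to the probe is not given. Both targeted genes were thus lower on every array of their own group. On the arrays of the other groups DONSON had -1.02 (EBC-1), -0.22 (SK-MES-1), 0.12, 0.19 and -0.13 (A549), and LOXL2 had 0.42, 0.10, -0.81, 0.56 and 0.22, the last 3 with the siRNAs.

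The Cy3 channel was read for cell type markers. Of 7 squamous markers, SK-MES-1 had KRT14, PKP1, SOX2 and TP63 well above background, while EBC-1 had SOX2 alone. KRT5, KRT6A and DSG3 were not well above background in any of the 4 lines. SOX2 and TP63 do not mark the squamous lines here. The SOX2 probe was at 7.62 in EBC-1, 6.48 in SK-MES-1, 14.3 in SBC-3 and 9.13 in A549 (log2). TP63 was at 5.31 in SK-MES-1 and 6.47 in SBC-3. SBC-3 had the small cell markers CHGA, DLL3, NEUROD1 and SYP well above background. DLL3 was so in all 4 lines, and CHGA in A549 too. A549 had 3 of 6 adenocarcinoma markers, KRT7, MUC1 and NAPSA, while SFTPC was above background on 2 of its 3 arrays and NKX2-1 and SFTPB on 0. The same 3 were above background in EBC-1, and SK-MES-1 had SFTPC besides, so this list does not mark A549; KRT7 was its brightest gene in every line. In the limma test DLL3 fell with miR-150-3p (-0.65, adjusted p = 0.0267). KRT14 with miR-150-3p and NAPSA in LOXL2-edited cells also passed, but a probe of each was at background in a control, so no fold is given. Of 8 stromal, endothelial and immune markers (7 with a probe), 3 or 4 were above background in a line, led by COL1A1 in each; COL3A1 and PECAM1 were not on any array, VWF was on 1 SBC-3 array, and CD68 had no probe. So the names squamous, small cell and adenocarcinoma are those of the labels, and EBC-1 shows 1 of its 7 markers.

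Of the 75 histone probes, a spot was counted where it was no outlier and well above background in at least 1 channel, and a gene's value is the mean of its counted probes. Among the 70 members, H2AC18, H2BC18, H3C14 and H4C14 had no probe matched to them, and H2BC1 and H4C7 were not well above background on any array. A value on all 8 arrays was had for 58 members, and in these both channels were above background. H1-1, H1-6, H2AC25, H2BC6, H2BC7 and H4C5 had a value on some arrays. Many members share nearly identical coding sequences (H2AC18 with H2AC19, for example), and the probe sequences were not used here, so a probe's signal may include its copies.

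In EBC-1 with miR-150-3p, 54 of 61 members with a value lay below 0 and 34 of 61 below -1, where 6.04% of all 14759 genes lay below -1; 3 of 61 lay above 1 (H2AC19, H2AC25 and H1-6, the last seen in the treated channel alone), where 5.96% of all genes did under the same filter. The median of the members was -1.17, against 0.05 for all genes. Class medians were -1.97 for H4, -1.68 for H3, -1.27 for H2A, -0.81 for H1 and -0.47 for H2B. In SK-MES-1, 56 of 62 members lay below 0 with a median of -0.32, but 0 of 62 passed -1 or 1, where 1.27% and 2.57% of all 16178 genes did. Its class medians ran from -0.27 for H2B to -0.42 for H1. The sign of every class median on every array was the same in all 7 other ways of computing the values. Of these, the deposited table of the series and keeping outlier spots left every class median unchanged. Whether there were fewer cells in S phase or less histone RNA in each cell cannot be told apart in bulk RNA.

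**Figure D1:**
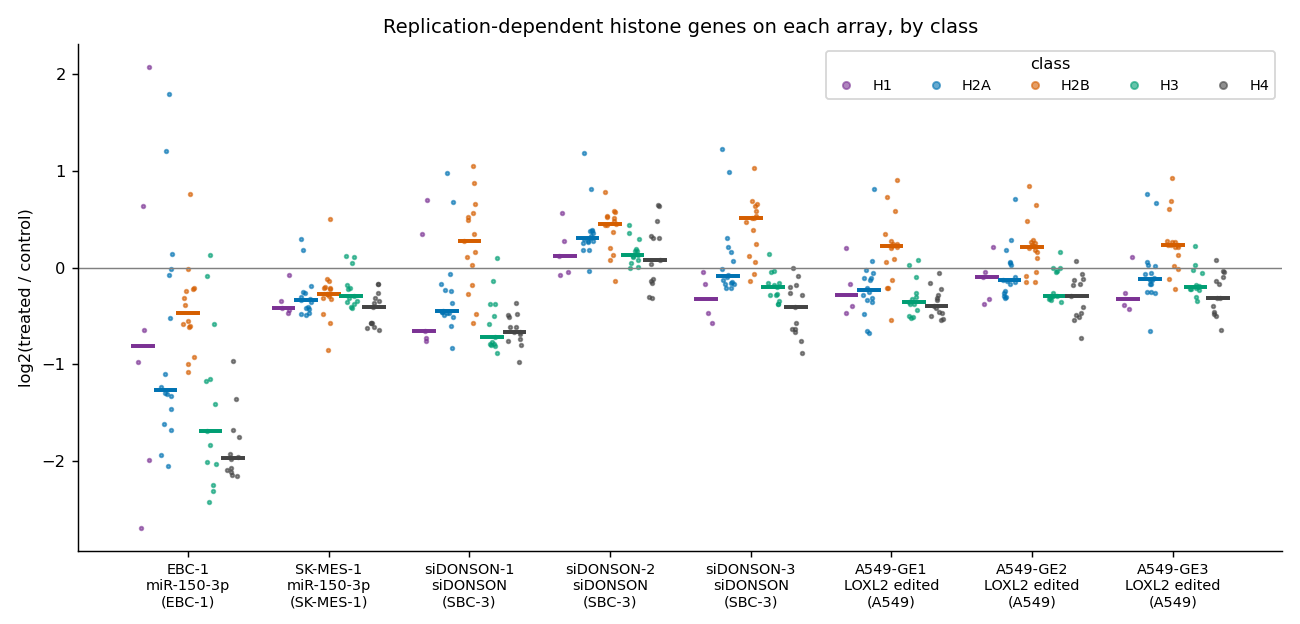
Each point is 1 histone gene on 1 array (y axis: log2 of treated over control), coloured by class, with a bar at the class median. In EBC-1 the H4 and H3 medians lie at -1.97 and -1.68 and the H2B median at -0.47; on the siDONSON and LOXL2 arrays the H2B median is the highest of the 5 classes.

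Over both miR-150-3p arrays, 8 of 59 tested members fell and 0 rose at an adjusted p under 0.05 (limma, Benjamini-Hochberg over all 14230 genes), where 2.90% of all genes fell and 2.47% rose. The 8 were 5 of 12 H4 genes, 2 of 14 H2B genes and 1 of 15 H2A genes; 0 of 5 H1 and 0 of 13 H3 genes passed. At an unadjusted p under 0.05, 43 of 59 were lower and 1 was higher, and 4266 of all 14230 genes passed in either direction. The 2 lines differed in size, and the test weighs that gap as spread: without EBC-1 the count was 0, and without SK-MES-1 it was 44 (40 lower, 4 higher), with 2972 of all genes called against 765, the lone array being assumed to vary like the other groups. Leaving out an array of another group also shifted the pooled spread: the count was 0 without any 1 of the A549 arrays, 2 without siDONSON-1 or siDONSON-3 and 9 without siDONSON-2. Without the filter on dim probes it was 0, with 198 of all genes called. The 8 genes kept the same ratios there, with limma adjusted p from 0.0533 to 0.0541. The count was 14 with normexp and loess, 14 with both channels above background and 20 with a robust, intensity-dependent spread. In these settings 1537, 1097 and 1199 of all genes were called, in that order, against 765.

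H4 had the lowest class median in EBC-1. On that array all 12 of its measured genes lay below 0, from -2.15 for H4C6 to -0.96 for H4C16, and 11 of 12 lay below -1. On the SK-MES-1 array all 13 lay below 0, from -0.64 for H4C11 to -0.17 for H4C3. H4C11 had -1.98 (EBC-1) and -0.64 (SK-MES-1) (mean -1.31, SE 0.28, limma adjusted p = 0.0436). H4C6 had -2.15 and -0.62 (mean -1.39, SE 0.30, adjusted p = 0.045). Both lay below 0 in each line, with EBC-1 the lower by over 1 log2 unit. H4C9 (-2.11 and -0.62, adjusted p = 0.0471), H4C15 (-2.07 and -0.57, adjusted p = 0.0488) and H4C12 (-1.75 and -0.57, adjusted p = 0.0451) also fell. The 5 that passed are the 5 H4 genes with the lowest ratios in SK-MES-1, and H4C8 came next (-1.92 and -0.57, adjusted p = 0.0529). H4C3, with -1.96 (EBC-1) and -0.17 (SK-MES-1), did not pass (adjusted p = 0.116).

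H3 genes had ratios nearly as low in EBC-1. H3C7 was the lowest, with -2.42 (EBC-1) and -0.41 (SK-MES-1) (mean -1.41, SE 0.41, adjusted p = 0.0756), and 10 of 13 H3 genes lay below -1 in EBC-1. H3C13, the lowest in SK-MES-1, had -1.15 and -0.42. H3C1 and H3-4, a variant known from testis, stood apart. H3-4 had 0.13 (EBC-1) and 0.05 (SK-MES-1), and between -0.13 and 0.11 on the other 6 arrays. H3C1 had -0.08 and 0.12, and between 0.01 and 0.23 on the other 6. No ratio of these genes on the 8 arrays was past 0.23 in size.

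H2A genes covered a wide range. H2AC16 was lowest in EBC-1 at -2.05 and H2AC15 lowest in SK-MES-1 at -0.49, and 10 of 16 lay below -1 in EBC-1. H2AC6, which can give a polyadenylated transcript, had -1.10 (EBC-1) and -0.48 (SK-MES-1) (mean -0.79, SE 0.18, adjusted p = 0.0479); with the brightest probe alone the mean was -0.86 and the adjusted p 0.0567. H2AC19 had the opposite sign, 1.79 (EBC-1) and 0.30 (SK-MES-1) (mean 1.05, SE 0.29, adjusted p = 0.0699), and was the 1 member above 0 on all 8 arrays. With its near-identical copy H2AC18, which of the 2 genes the probe measured cannot be told apart. H2AC8 had 0.14 and -0.41, and H2AC7 had -0.08 and -0.32.

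H2B genes had the highest class median in EBC-1 (-0.47) and ratios like the other classes in SK-MES-1. By gene value H2BC11 was lowest in EBC-1 at -1.08, the only one of 14 below -1. The H2BC21 probe bright in both channels was lower, at -1.28, but its gene value averages in a dim probe. H2BC12, a polyadenylated cluster gene, had -0.60 (EBC-1) and -0.85 (SK-MES-1) (mean -0.72, SE 0.12, limma adjusted p = 0.0267). It was the member with the lowest ratio in SK-MES-1. Its 2 probes differed there, with -1.44 and -0.25, and in EBC-1 had -0.78 and -0.42. H2BC8 had -0.92 and -0.48 (mean -0.70, SE 0.12, adjusted p = 0.0295). H2BC5, another gene with polyadenylated transcripts, had -0.01 and -0.21. H2BC26 was highest in SK-MES-1 among genes bright in both channels, at -0.12. For H2BC21 the gene value in EBC-1 was 0.76, the mean of a probe at -1.28 and a dim probe at 2.80, seen above background in the treated channel alone; the dim probe gives treated over control of at least 2.28-fold, and the probes point in opposite directions. In SK-MES-1 the brighter probe alone was counted, at -0.22.

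H1 genes split. H1-5 had the lowest ratio of all members on the EBC-1 array, -2.69, with -0.47 for SK-MES-1 (mean -1.58, SE 0.43, adjusted p = 0.0692). H1-1 had -1.99 and -0.44, H1-4 had -0.97 and -0.42, and H1-3 had -0.65 and -0.34. H1-2, the H1 gene known for a polyadenylated transcript, had 0.64 (EBC-1) and -0.08 (SK-MES-1) (mean 0.28, SE 0.18, adjusted p = 0.315). H1-2 was thus above 0 where the other 4 H1 genes measured in both channels were below -0.6. H1-6, a testis gene, was above background in EBC-1 in the treated channel only, and no fold is given for it. Of the 5 cluster genes with polyadenylated transcripts, 2 fell with miR-150-3p (H2AC6 and H2BC12), 2 rose with siDONSON (H2BC5 and H2BC12), and in LOXL2-edited cells H2BC12 rose and H2AC6 fell (limma; of all genes 2.90% fell with miR-150-3p, 4.01% rose with siDONSON, and 7.58% rose and 6.77% fell in LOXL2-edited cells).

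**Figure D2:**
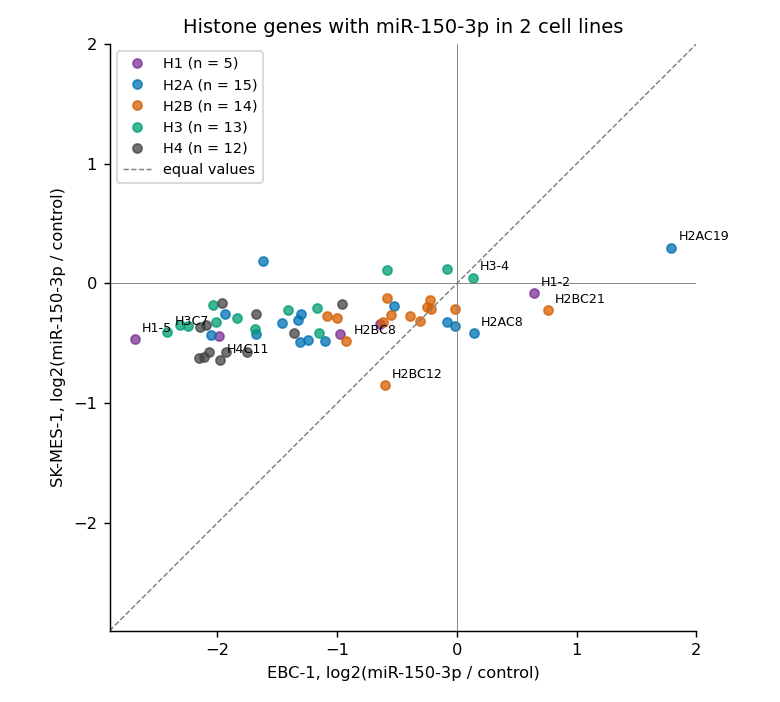
Each point is 1 histone gene measured on both miR-150-3p arrays (x axis: log2 ratio in EBC-1; y axis: log2 ratio in SK-MES-1; dashed line: equal values). Most points lie in a narrow band of SK-MES-1 values between -0.64 and 0.18 while EBC-1 values spread from -2.69 to 1.79; H2BC12 lies lower in SK-MES-1 (-0.85) than in EBC-1 (-0.60).

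Over the 3 siDONSON arrays 9 of 61 tested members rose and 0 fell (limma, adjusted p under 0.05 over 14454 genes), where 4.01% of all genes rose and 3.21% fell. At an unadjusted p under 0.05, 11 of 61 were higher and 4 lower, and 3772 of all 14454 genes passed in either direction, a like share. The 9 were 8 of 15 H2B genes and 1 of 16 H2A genes, and 0 of the 4 H1, 13 H3 and 13 H4 genes passed. Class means had medians of 0.39 for H2B, -0.09 for H2A, -0.24 for H3, -0.33 for H1 and -0.38 for H4, and the median of all 61 was -0.10. Without siDONSON-3 the count was 1 (H2BC12), where 97 of all genes were called against 1044 on all 8 arrays. Without siDONSON-2 it was 5 (4 higher, 1 lower), with 1115 of all genes called, and without siDONSON-1 it was 6, with 466. With the spread of these 3 arrays alone it was 0, with 26 of all genes called. Without EBC-1 or without SK-MES-1, whose gap enters the pooled spread, it was 13, and without A549-GE1, A549-GE2 and A549-GE3 it was 5, 4 and 5.

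H2BC12 had 1.05, 0.78 and 1.03 with siDONSON-1, siDONSON-2 and siDONSON-3 (mean 0.95, SE 0.10, limma adjusted p = 0.00659). Both of its probes were above 0 on each array, 1 of them between 1.09 and 1.59 and the other between 0.47 and 0.68. H2BC14 had 0.66, 0.53 and 0.69 (mean 0.63, SE 0.09, adjusted p = 0.0141). H2BC10 had 0.57, 0.45 and 0.63 (mean 0.55, SE 0.08, adjusted p = 0.0147). The 3 siRNAs gave like values for each of these genes. H2BC5 (mean 0.53, adjusted p = 0.0188), H2BC8 (mean 0.53, adjusted p = 0.0255), H2BC4 (mean 0.46, adjusted p = 0.0306), H2BC13 (mean 0.46, adjusted p = 0.0271) and H2BC9 (mean 0.39, adjusted p = 0.0492) rose as well, each higher on 3 of 3 arrays. By gene value the lowest H2B gene in the mean was H2BC7, with -0.58, 0.58 and -0.07. The H2BC21 probe bright in both channels lay lower on each array, at -0.59, -0.13 and -0.14. With siDONSON-1 the gene value of H2BC21 was 0.88, through a dim probe at background in the control. H2AC25, a gene of the HIST3 cluster, had 0.68, 1.18 and 1.23 (mean 1.03, SE 0.19, adjusted p = 0.0271), but its mean was 0.27 with normexp and loess (adjusted p = 0.0251).

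The other classes differed between the 3 arrays, and with 1 array per siRNA the siRNA and the array cannot be told apart. Of 13 H4 genes, 13 lay below 0 with siDONSON-1 and 13 with siDONSON-3, but 5 with siDONSON-2; of 13 H3 genes the numbers were 12, 12 and 1. H4C11 was the lowest H4 gene in the mean, with -0.76, -0.31 and -0.88 (mean -0.65, SD 0.30, n = 3). H4C3 was the highest, with -0.37, 0.65 and -0.00 (mean 0.09, SD 0.52). H3C8 had -0.81, 0.08 and -0.37 and H3C1 had 0.10, 0.01 and 0.14, the lowest and highest H3 genes in the mean. H2AC13 had -0.83, 0.30 and -0.21. Medians over all members were -0.47, 0.27 and -0.14 with siDONSON-1, siDONSON-2 and siDONSON-3, and siDONSON-2 had the highest of the 3 values for most H2A, H3 and H4 genes, H3C1 being an exception. H1-4 had -0.72, -0.08 and -0.58, and H1-2 had 0.35, 0.27 and -0.04. None of these H1, H3 and H4 genes passed the limma test on all 8 arrays. H4C6, H4C11 and H4C15 were called without EBC-1 and also without SK-MES-1, and H1-4 without siDONSON-2.

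In LOXL2-edited A549 cells 2 of 62 tested members rose and 1 fell (limma, adjusted p under 0.05 over 15531 genes), where 7.58% of all genes rose and 6.77% fell. These shares of members are below those of all genes. At an unadjusted p under 0.05, 11 of 62 were higher and 4 lower, and 4817 of all 15531 genes passed in either direction, a larger share. H2BC12 had 0.73, 0.64 and 0.61 in A549-GE1, A549-GE2 and A549-GE3 (mean 0.66, SE 0.10, limma adjusted p = 0.00638). H2BC7 had 0.91, 0.85 and 0.69 (mean 0.82, SE 0.20, adjusted p = 0.0419), but its control signal was above background on 2 of the 3 arrays and its mean was 0.10 with normexp and loess. H2AC6 had -0.65, -0.32 and -0.65 (mean -0.54, SE 0.15, adjusted p = 0.0476), and with its brightest probe alone the call was lost (-0.42, adjusted p = 0.162). The count was 0, 0 and 1 without A549-GE1, A549-GE2 and A549-GE3, where 588, 470 and 579 of all genes passed against 2229 on all 8 arrays. It was 7 with normexp and loess, where 3186 of all genes passed. These 3 arrays varied less than the other groups. With their spread alone 5873 of all genes passed, against 2229 with the pooled spread, and the count of members was 34 (23 lower, 11 higher). It was 10 without EBC-1 or without SK-MES-1, with H4C6, H4C9, H4C11, H4C12 and H4C15 among the 10.

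On the A549 arrays H2B had the highest class median, as on all 8 arrays, the miR-150-3p ones included; a difference between classes was not tested. Medians of the class means were 0.23 for H2B, -0.17 for H2A, -0.28 for H1, -0.29 for H3 and -0.35 for H4. H4C11 was the lowest member at -0.62 (SD 0.11, n = 3), H3C7 the lowest H3 gene at -0.40 (SD 0.10) and H1-4 the lowest H1 gene at -0.40 (SD 0.02). H2BC26 was the lowest H2B gene at -0.30 (SD 0.21). For H2BC21 the dim probe was again at background in the control, and the probe bright in both channels had -0.22, -0.33 and -0.20. H2AC19 had 0.82, 0.71 and 0.67, H1-2 had 0.20, 0.21 and 0.11, H3C1 had a mean of 0.15 (SD 0.07) and H4C3 of 0.03 (SD 0.08).

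Some members kept their sign through all 8 arrays. H4C6, H4C9, H4C11, H4C12, H4C15, H3C6, H1-4, H1-5 and H2AC6 lay below 0 on 8 of 8, and H2AC19 above 0. These are of the 58 members with a value on all 8 arrays. How many of all genes kept their sign is not given here, so this is not read as particular to the members. As treated RNA was in Cy5 on every array, a dye effect of these probes and an effect of the treatments cannot be told apart in the group means. A dye effect shared by all arrays cancels in a difference between groups.

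Differences between groups were tested in the same fit. In miR-150-3p minus siDONSON, 7 of 58 tested members were lower and 0 higher, where 1.56% and 1.13% of 13029 genes were. All 7 were H2B genes: H2BC4, H2BC5, H2BC8, H2BC10, H2BC12, H2BC13 and H2BC14. H2BC12 had the widest gap, -1.68 (SE 0.15, limma adjusted p = 0.00521). In miR-150-3p minus LOXL2 edited, 3 of 58 were lower and 0 higher, where 1.87% and 1.73% of 13778 genes were: H2BC12 (-1.38, SE 0.15, adjusted p = 0.00941), H2BC8 (-1.0, SE 0.16, adjusted p = 0.0202) and H2BC14 (-0.71, SE 0.14, adjusted p = 0.0408). For siDONSON minus LOXL2 edited the limma count was 0 of 61 members (4 higher and 1 lower at an unadjusted p under 0.05, as were 3475 of all genes in either direction), where 3.51% of 13656 genes were lower and 3.79% higher. The H4 genes, though called in the miR-150-3p group, gave 0 calls of 12 in either difference, with medians of -0.82 and -0.87. Leaving out EBC-1 left 1 gene (H2BC12) in each of the first 2 differences, and leaving out SK-MES-1 gave 36 and 30; without A549-GE2 the second gave 0. The 7 genes of the first became 4 without siDONSON-3, where 152 of all genes were called against 350. They became 3 without A549-GE1 and 2 (H2BC8 and H2BC12) without A549-GE2 or A549-GE3, arrays outside that difference. Cell line and treatment differ together between the groups and cannot be told apart.

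Many H2A and H2B genes lie head to head and share the promoter between them. In the RefSeq promoter table (GRCh38.p14; 250 bases before to 50 after each gene start), 65 of 70 members were found, and 11 H2A and H2B pairs on opposite strands had overlapping windows. In EBC-1, the H2B gene had the higher ratio in 7 of 9 pairs measured. The number was 7 of 9 in SK-MES-1, 8 of 10, 6 of 10 and 7 of 10 with siDONSON-1, siDONSON-2 and siDONSON-3, and 8 of 10 on each A549 array. H2BC7 counts as above H2AC7 in SK-MES-1 (0.50 against -0.32) and A549-GE1 through its treated channel alone, its control being at background there. In these counts H2BC21 is held above H2AC20 by its dim probe on 3 arrays; its bright probe lay below H2AC20 with siDONSON-1 (-0.59 against -0.46), in A549-GE2 (-0.33 against -0.31) and in A549-GE3 (-0.20 against -0.17). The pairs H2AC6 and H2BC4, H2AC13 and H2BC13, H2AC14 and H2BC14, and H2AC17 and H2BC17 had the H2B gene higher on 8 of 8 arrays. H2AC14 had -1.24, -0.47, -0.49, 0.38, -0.15, -0.34, -0.24 and -0.25 in the order EBC-1, SK-MES-1, siDONSON-1, siDONSON-2, siDONSON-3, A549-GE1, A549-GE2 and A549-GE3. Its partner H2BC14 had -0.61, -0.32, 0.66, 0.53, 0.69, 0.27, 0.23 and 0.24. The 2 genes of this pair had opposite signs on 5 of the 8 arrays. H2AC25 and H2BC26 went the other way, with H2AC25 higher on 7 of 7.

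**Figure D3:**
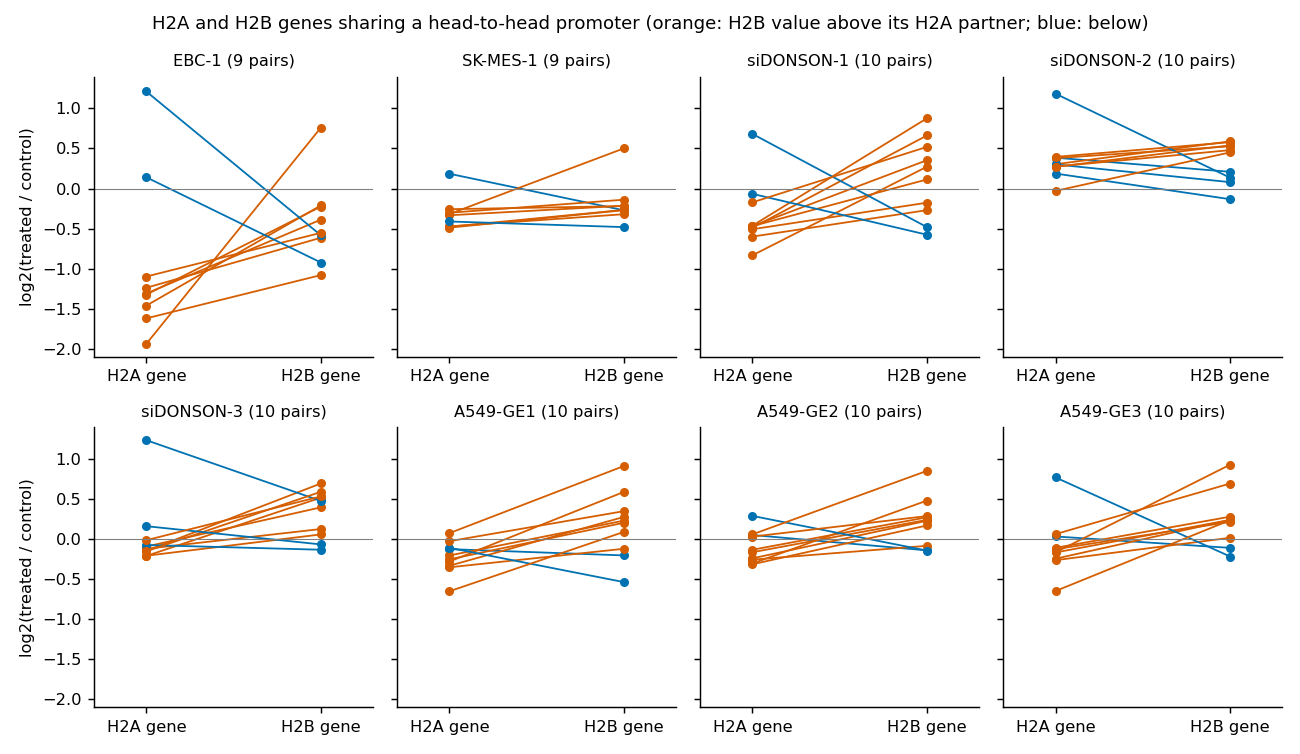
Each line joins an H2A gene (left) to the H2B gene with which it shares a head-to-head promoter (right), 1 panel per array (y axis: log2 of treated over control). Lines climb to the right where the H2B value is higher, in 7 of 9 pairs in EBC-1 and 8 of 10 on each A549 array.

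The promoter windows were searched for 5 short motifs. The octamer ATTTGCAT, the Oct-1 motif known from H2B promoters, was in the windows of 14 of 18 H2B and 11 of 16 H2A genes, 1 of 12 H3, 0 of 6 H1 and 0 of 13 H4 genes, and in 1.77% of all 35116 windows (both strands). The H1 box AAACACA was in 6 of 6 H1 windows and 5.64% of all. GGTCC, part of a known H4 element, was in 12 of 13 H4 windows but also in 46.3% of all. CCAAT was in every H1, H2A, H2B and H3 gene found but 3 of 13 H4 genes, against 34.6% of all, and TATAAA in 44 of 65 members against 11.5%. GGACC, the reverse complement of GGTCC, overlaps CCAAT by 2 letters in H3C7, and TTTATA overlaps TATAAA by 4 in H3C7 and H2BC12. Of the 8 H2B genes that rose with siDONSON, H2BC5 and H2BC13 hold no octamer in these letters. A match is a description of letters in this window only.

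The windows below are 1 for each class and 2 for H2B, for the genes that the results above turn on; H2AC14 and H2BC14 show the same shared stretch from both strands. They are GRCh38.p14 sequences from RefSeq, 5′ to 3′ on the gene's strand, with every match of the 5 motifs (either strand) in capitals.
H1-5 (chr6:27867539-27867838, minus strand): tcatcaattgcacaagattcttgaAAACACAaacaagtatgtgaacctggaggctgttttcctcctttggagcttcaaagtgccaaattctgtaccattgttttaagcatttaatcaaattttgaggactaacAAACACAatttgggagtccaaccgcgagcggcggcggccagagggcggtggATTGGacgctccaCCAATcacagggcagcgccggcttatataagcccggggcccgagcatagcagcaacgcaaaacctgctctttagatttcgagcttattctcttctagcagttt
H2AC14 (chr6:27814728-27815027, minus strand): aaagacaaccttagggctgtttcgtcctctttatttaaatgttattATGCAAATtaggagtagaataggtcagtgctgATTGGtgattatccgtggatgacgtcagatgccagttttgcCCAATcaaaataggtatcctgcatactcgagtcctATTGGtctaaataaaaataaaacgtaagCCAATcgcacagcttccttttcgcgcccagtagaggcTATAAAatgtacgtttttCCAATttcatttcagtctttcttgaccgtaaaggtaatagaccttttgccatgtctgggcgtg
H2BC14 (chr6:27814772-27815071, plus strand): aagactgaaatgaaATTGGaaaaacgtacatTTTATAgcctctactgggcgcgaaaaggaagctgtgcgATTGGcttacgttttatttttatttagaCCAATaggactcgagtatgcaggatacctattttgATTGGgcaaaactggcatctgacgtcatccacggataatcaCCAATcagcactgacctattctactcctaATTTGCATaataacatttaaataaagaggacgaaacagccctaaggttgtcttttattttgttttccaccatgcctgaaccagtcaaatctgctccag
H2BC12 (chr6:27146806-27147105, minus strand): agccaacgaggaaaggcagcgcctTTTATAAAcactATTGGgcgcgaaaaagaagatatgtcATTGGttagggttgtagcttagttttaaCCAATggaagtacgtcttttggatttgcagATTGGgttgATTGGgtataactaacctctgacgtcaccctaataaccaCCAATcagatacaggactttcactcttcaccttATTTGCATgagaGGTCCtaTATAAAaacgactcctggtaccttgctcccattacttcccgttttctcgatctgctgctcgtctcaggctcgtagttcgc
H3C7 (chr6:26250586-26250885, minus strand): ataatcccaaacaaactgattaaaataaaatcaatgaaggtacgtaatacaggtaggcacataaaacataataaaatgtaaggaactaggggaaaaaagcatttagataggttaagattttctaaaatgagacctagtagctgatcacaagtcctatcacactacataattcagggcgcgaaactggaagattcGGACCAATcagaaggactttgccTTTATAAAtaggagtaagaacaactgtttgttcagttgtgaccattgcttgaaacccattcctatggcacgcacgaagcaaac
H4C11 (chr6:27823842-27824141, plus strand): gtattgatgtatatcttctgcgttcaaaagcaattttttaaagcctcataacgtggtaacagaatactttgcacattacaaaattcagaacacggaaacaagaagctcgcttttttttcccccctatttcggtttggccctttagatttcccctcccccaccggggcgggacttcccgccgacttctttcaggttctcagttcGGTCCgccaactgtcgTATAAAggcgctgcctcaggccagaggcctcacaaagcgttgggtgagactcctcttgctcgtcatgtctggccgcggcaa
In them the octamer stands once in H2AC14, H2BC14 and H2BC12 and not in H1-5, H3C7 or H4C11. Among the H2A genes named above, H2AC16 and H2AC8 hold it, for example, and H2AC13 and H2AC19 do not. By class, it was in 14 of 18 H2B windows (EBC-1 class median -0.47) and 11 of 16 H2A windows (-1.27). It was in 1 of 12 H3 (-1.68), 0 of 6 H1 (-0.81) and 0 of 13 H4 windows (-1.97). A link between the octamer and the ratios was not tested. H4C11 holds no CCAAT and H2BC12 holds 6.

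Control (Cy3) levels, normalised between arrays and in log2, are compared below for 1 probe at a time. Of 75 probes, 66 were above background in all 4 lines, with a median range of 0.88 between the lowest and the highest line; 29 of the 66 had a range over 1 and 9 over 2. The SD over the 3 arrays of a line had a median of 0.04 (largest 0.27), a spread that may be technical where the arrays share a control RNA; EBC-1 and SK-MES-1 have 1 array each and no such spread.

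H4C5 was at 14.4 in SK-MES-1, 15.1 in SBC-3 and 14.6 in A549 and not well above background in EBC-1, a level at least 501-fold higher in SK-MES-1 than in EBC-1. The other 12 H4 genes counted on the SK-MES-1 array had a value in EBC-1 too. H1-1 was at 11.5 (EBC-1) and 13.3 (SK-MES-1) and not above background in SBC-3 or A549, at least 80.1-fold higher in EBC-1 than in SBC-3. H2BC6 was at 10.1 in A549 and 8.85 in SK-MES-1 and not above background in the other 2 lines, at least 25.9-fold higher in A549 than in EBC-1. H2BC7 was at 10.9 in SBC-3 and not well above background in EBC-1 and SK-MES-1, at least 44.4-fold higher in SBC-3 than in EBC-1. These bounds set the bright line against the lowest signal counted as well above background. Among probes bright in all lines, H3C11 had the widest range, with 11.4 in EBC-1, 10.3 in A549, 7.45 in SK-MES-1 and 6.54 in SBC-3. H2AC8 (12.9) and H3C4 (14.9) were highest in SBC-3, against 9.32 to 10.6 and 12.2 to 12.5 in the other lines. H3-4 stayed between 14.9 and 15.2 in all 4.

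**Figure D4:**
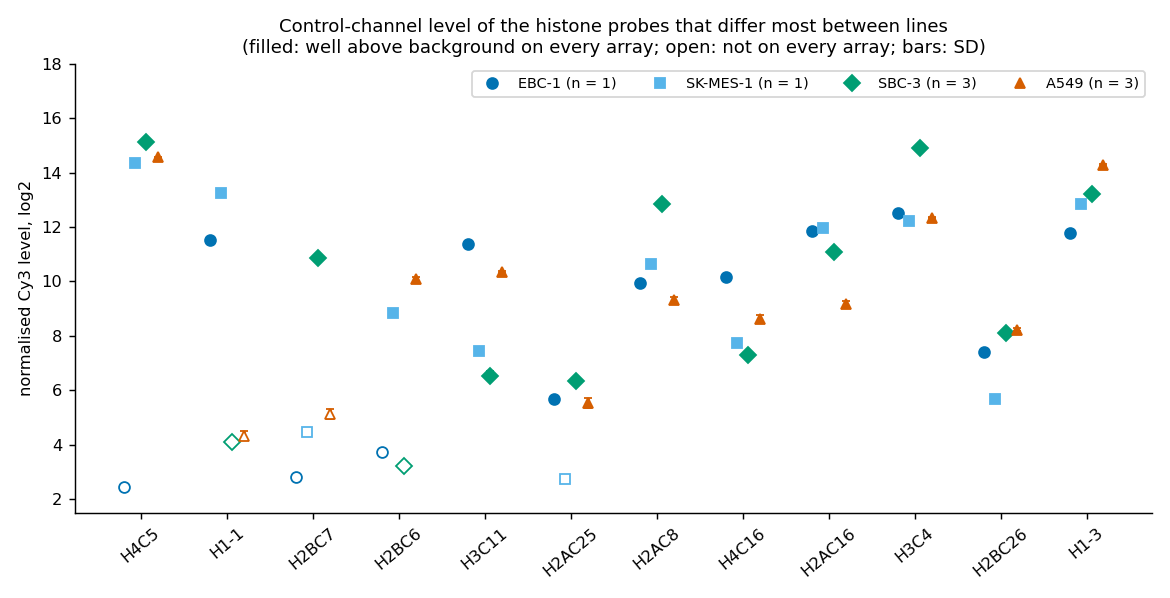
Control-channel level (y axis: log2 of the normalised Cy3 signal) of the 12 histone probes with the widest range between the 4 cell lines, with 1 marker per line (mean, and SD where n = 3). Open markers are lines in which the probe was not above background on every array: H4C5 in EBC-1, H1-1 in SBC-3 and A549, H2BC7 in all but SBC-3, H2BC6 in EBC-1 and SBC-3, and H2AC25 in SK-MES-1.

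Genes that act on histones or DNA synthesis were set beside the clusters. For their counts, the shares of all genes that fell and rose were 2.90% and 2.47% with miR-150-3p, 3.21% and 4.01% with siDONSON, and 6.77% and 7.58% in LOXL2-edited cells. At an unadjusted p under 0.05 the numbers in either direction were 4266 of 14230, 3772 of 14454 and 4817 of 15531. Of 44 S phase replication genes, 39 of 43 measured lay below -1 in EBC-1 (median -1.91) and 2 of 43 in SK-MES-1 (median -0.16). In the limma test of the miR-150-3p group 2 of 43 fell, UHRF1 (-2.82 and -1.02, adjusted p = 0.03) and CCNE1 (-1.51 and -1.18, adjusted p = 0.0261), and 0 rose; 37 of 43 were lower at an unadjusted p under 0.05. E2F2 (mean -1.83) was next lowest and POLD3 (-0.34) and RPA2 (-0.28) highest. With siDONSON, 0 of 43 passed the limma test (2 lower at an unadjusted p under 0.05), from RRM1 (-0.60) and ORC1 (-0.59) to CDT1 (0.20) and RPA2 (0.20). In LOXL2-edited cells 0 of 43 passed (1 lower at an unadjusted p under 0.05), from CDC6 (-0.55) and PRIM1 (-0.49) to GINS1 (0.42) and PCNA (0.65). In EBC-1 the replication genes had a lower median than the histone genes; the histone genes had the lower one in SK-MES-1, siDONSON-1, A549-GE1 and A549-GE3 and the higher one in siDONSON-2, siDONSON-3 and A549-GE2. The part of cell cycle position in the histone values was not tested.

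Of 32 genes for histone mRNA synthesis and 3-prime processing, 3 of 30 fell and 0 rose with miR-150-3p. UPF1, a helicase of histone mRNA decay, had -1.30 (EBC-1) and -0.74 (SK-MES-1) (adjusted p = 0.0231), CPSF1 had -0.92 and -0.45 (adjusted p = 0.0417), and LSM10 of the U7 particle had -0.60 and -0.36 (adjusted p = 0.0493). SLBP had -1.19 (EBC-1) and -0.26 (SK-MES-1) (mean -0.72, SE 0.20, adjusted p = 0.0701), 0.14, -0.15 and -0.14 with the 3 siRNAs, and -0.30, -0.22 and -0.18 in A549. NPAT had no value in EBC-1, 0.16 in SK-MES-1, a mean of 0.10 with siDONSON and -0.32 in A549 (adjusted p = 0.162). The highest with miR-150-3p were NCBP2 (0.37) and TENT4B (0.66). With siDONSON, SNRPD3 fell (-0.35, adjusted p = 0.0404) and 0 of 30 rose, SNRPE (-0.48) being lowest and ZNF473 (0.38) and UPF1 (0.45) highest. In A549, LSM10 fell (-0.41, adjusted p = 0.0246), 1 of 31, the range being from LSM11 (-0.62) and CPSF3 (-0.41) to YY1 (0.19) and NCBP1 (0.25).

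Of 29 histone chaperone and assembly genes, 2 of 28 fell and 0 rose with miR-150-3p: ASF1B, an H3 and H4 chaperone (-2.72 and -0.87, adjusted p = 0.0372), and UBN1 of the HIRA complex (-0.65 and -0.46, adjusted p = 0.0331). CHAF1B, of the replication-coupled assembly factor CAF-1, had -2.50 and -0.47 (adjusted p = 0.0691), and HIRA (0.32) and UBN2 (0.49) were highest. With siDONSON, 0 of 29 passed the limma test (3 lower and 0 higher at an unadjusted p under 0.05), from SSRP1 (-0.42) and ANP32E (-0.38) to ASF1A (0.17) and UBN2 (0.22). In A549, HIRA fell (-0.61, adjusted p = 0.0477) and UBN2 rose (0.55, adjusted p = 0.0185), with NPM1 (-0.40) and RBBP7 (0.14) next to them. Between groups, UPF1 was lower with miR-150-3p than with siDONSON (-1.47, adjusted p = 0.0157) or in LOXL2-edited cells (-1.10, adjusted p = 0.0277), as was UBN1 (-0.64 and -0.62, adjusted p = 0.0479 and 0.0493). CCNE1 was lower than in LOXL2-edited cells (-1.43, adjusted p = 0.038). ZNF473 was lower with miR-150-3p than with siDONSON (-0.85, adjusted p = 0.0347) and higher with siDONSON than in LOXL2-edited cells (0.71, adjusted p = 0.0231).

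**Figure D5:**
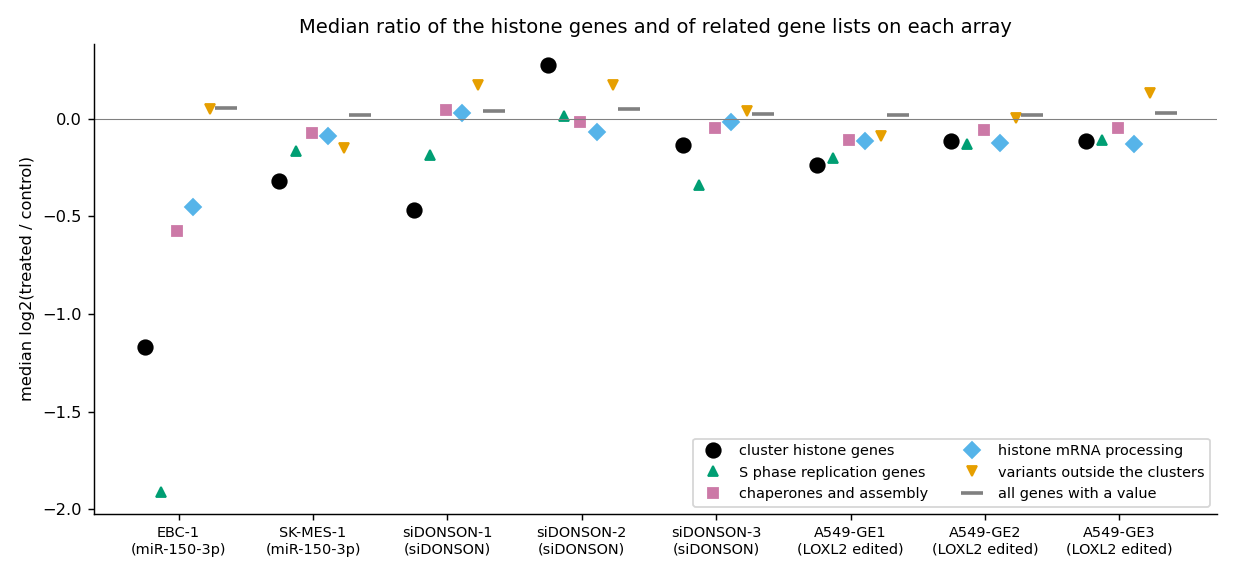
Median log2 ratio of treated over control (y axis) on each of the 8 arrays for the cluster histone genes (black circles), 4 related gene lists and all genes with a value (grey bars). In EBC-1 the replication genes lie at -1.91 and the histone genes at -1.17 while all genes lie at 0.05; with siDONSON-2 the histone genes lie at 0.27.

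All arrays lay on 1 slide, so a slide effect cannot vary between groups. Over the histone probes of an array, the error that the scanner software gives each ratio had a median between 0.205 and 0.243 in log2, wider than many of the SK-MES-1, siDONSON and A549 ratios given above.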

How the data were processed

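Agilent 2-colour gene expression arrays (8, design hg19) were scanned and processed with Feature Extraction 12.1.1.1, as the file headers state. The authors deposited intensity values (processed Cy5 and Cy3 signals, background-subtracted and dye-normalised, and raw medians) and the log10 ratio of Cy5 over Cy3 for every spot; the deposited table of the series holds the same log10 ratio. RNA was labelled with a linear amplification kit.

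Computed here were log2 ratios of the processed signals (R 4.3.3, limma 3.58.1). Control spots and outlier spots were left out, and a spot had to be well above background in at least 1 channel. Probes were named through 24782 of 50096 accessions found in RefSeq (GRCh38.p14), and probes of a gene averaged. One limma fit (lmFit, eBayes) of all 8 arrays held 3 group means, each tested against 0 and against each other, with 5 residual degrees of freedom where all arrays had a value; a gene was tested where all arrays of the group had a value, and p-values (2-sided) were adjusted by Benjamini-Hochberg over all genes tested. The code was tested on simulated data. Control levels are processed Cy3 signals after Aquantile normalisation between arrays; "at least" folds set the bright group against the lowest signal counted as well above background.

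Named genes are members past an adjusted p of 0.05, the lowest and highest of each class per miR-150-3p array and per other group among those bright in both channels, 5 cluster genes with polyadenylated transcripts, DONSON, LOXL2, SLBP and NPAT, and of the other lists those called and the 2 lowest and 2 highest. Other genes, such as those with line-specific levels, head-to-head pairs and H1-1, were chosen after their values were seen. Members and lists were chosen with earlier results of these data known. Alternatives were normexp with loess, median centring, other probe and spot filters, the series table, other spread estimates and leaving out each array.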

Additional observations from a re-analysis of the deposited data

Results flagged for a closer look

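A difference between groups, tested in the limma fit, drew attention to 7 H2B genes, all lower with miR-150-3p than with siDONSON. The log2 differences were -1.68 for H2BC12, -1.23 for H2BC8, -1.09 for H2BC14, -0.87 for H2BC4, -0.86 for H2BC10, -0.67 for H2BC13 and -0.64 for H2BC5. Without A549-GE2 or without A549-GE3, arrays outside this difference that enter the pooled spread, 2 of the 7 (H2BC8 and H2BC12) were called, and 3 without A549-GE1. Against the LOXL2-edited group the same test gave -1.38 for H2BC12, -1.0 for H2BC8 and -0.71 for H2BC14. Each of the 7 genes was below 0 on 2 of 2 miR-150-3p arrays, H2BC5 by only 0.01 in EBC-1. Each was above 0 on 3 of 3 siDONSON arrays and also on 3 of 3 LOXL2-edited A549 arrays. A dye effect shared by all arrays cancels in the differences between groups, while cell line and treatment cannot be told apart. Between EBC-1 and SK-MES-1, 5 of 67 histone probes had opposite signs (H1-2, H2AC8, H2AC11, H3C1 and H3C3), and in 0 of them did both ratios pass the software's error limit; that difference was not tested across arrays. Groups of 2 or 3 arrays are too small for a check of single arrays against the rest.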

How the results depend on the processing

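The median ratio of the histone genes ran from -1.26 to -0.95 in EBC-1, from -0.34 to -0.27 in SK-MES-1 and from -0.18 to -0.10 in LOXL2 edited. With siDONSON it was -0.10, turned to 0.08 without siDONSON-1 and was -0.31 without siDONSON-2. Counts of called members depended more on the setting. With miR-150-3p (8 called) normexp with loess gave 14, both channels above background 14, a robust, intensity-dependent spread 20, no filter on dim probes 0, the group's own spread 0 (as for all genes), and leaving out an array of the groups compared (here and below) 0 to 44. Leaving out an array of another group gave 0 to 9 there, because the spread is pooled over all groups; for siDONSON it gave 4 to 13 and for LOXL2 edited 1 to 10. With siDONSON (9 called) the group's own spread gave 0 and leaving out an array 1 to 6. With LOXL2 edited (3 called) normexp gave 7, the own spread 34 and leaving out an array 0 to 1. For miR-150-3p minus siDONSON (7 called) no filter gave 3 and leaving out an array 1 to 36 (an A549 array 2 to 3). For miR-150-3p minus LOXL2 edited (3 called) normexp gave 6 and leaving out an array 0 to 30. For siDONSON minus LOXL2 edited (0 called) normexp gave 3 and leaving out an array 0 to 1. The own-spread and leave-out settings hold fewer arrays. Calls over all genes shifted as well. With miR-150-3p they were 765, and 1537 with normexp, 1097 with both channels above background, 1199 with the robust spread and 198 without the filter. With siDONSON they were 1044, and 26 with the own spread and 97 to 1115 with an array left out. With LOXL2 edited they were 2229, and 3186 with normexp and 470 to 588 with an array left out. The cause of the other shifts was not tested. All 8 genes called with miR-150-3p were among the 14 of normexp and the 20 of the robust spread, and all 9 of siDONSON among the 10 of normexp. Of the 3 of LOXL2 edited, 2 were among the 7 of normexp, H2BC7 being lost (limma adjusted p = 0.697). With median centring, 8 of the 9 of siDONSON were called, and H2BC9 was lost at 0.36 (limma adjusted p = 0.0667). Of the genes called in a group none changed sign under the alternatives run. Naming by accession alone was not run as an alternative, since the scanner files name probes by accession only; normexp was run on median signals, as the files hold no mean signals. No paired analysis was possible because the shared numbers name different siRNAs and edited lines of different cell lines, and each ratio already sets a sample against its own control. Signal over background limits H1-6, H2BC7, H2AC25 and a probe of H2BC21.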

Other observations

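Histone variants outside the clusters, whose mRNAs are mostly polyadenylated and not tied to replication, were measured beside the cluster genes. Of 26, 0 of 14 tested passed the limma test with miR-150-3p (3 lower and 1 higher at an unadjusted p under 0.05) and 0 of 12 with siDONSON (0 lower and 1 higher); of all genes 4266 of 14230 and 3772 of 14454 passed that threshold in either direction. In EBC-1 their median was 0.05, against -1.17 for the cluster genes. Of the 14 with a value there, 3 lay below -1 and 0 above 1, where 6.04% and 5.96% of all genes did. CENPA, the centromeric H3, had -1.56 (EBC-1) and -0.21 (SK-MES-1), and H2AX, the variant phosphorylated at DNA breaks, had -1.42 and -0.28; these were the lowest, and H1-10 (mean 0.38) and H1-9P (mean 0.42) the highest. H2AZ2 (-0.14) and H1-10 (-0.18) were lowest and H1-7 (0.31) and H2AJ (0.49) highest with siDONSON. In LOXL2-edited A549 cells 2 of 17 rose and 0 fell, where 7.58% of all genes rose and 6.77% fell: H3-3A, a gene of the replication-independent H3.3, had 0.36, 0.34 and 0.38 (adjusted p = 0.0282), and H2BW2 had 1.27, 1.11 and 0.85 (adjusted p = 0.011). CENPA (-0.47) and H2AX (-0.25) were lowest there, and H2AB1 (0.86) stood next to H2BW2.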
